A study of Homo sapiens with 18 samples.

Results

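The genes described here make, desaturate and activate fatty acids: ACLY, ACSS2, ACACA, FASN, SCD, FADS1, FADS2, ACSL1, ACSL4 and ACSL5. They were picked by gene symbol from a fixed list. Of these 10 listed symbols, 9 had a row in the inhibitor table, which holds 21391 features, and the same 9 had a row in the siRNA table, which holds 18350. All 9 passed the filter on low values, a mean of at least 1 over the libraries of a table. No row carried the symbol of ACACA, the acetyl-CoA carboxylase that makes malonyl-CoA. Both tables hold a row without a symbol that may be ACACA, but it was not taken because genes were picked by symbol. ACACA was therefore not analysed here, which does not mean that it was not measured.

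Fatty acid synthesis starts in the cytosol, where ACLY splits citrate into acetyl-CoA and ACSS2 makes acetyl-CoA from acetate. ACACA turns acetyl-CoA into malonyl-CoA, and FASN builds the saturated chain from it. SCD puts the first double bond into saturated chains, FADS1 and FADS2 add double bonds to polyunsaturated chains, and the ACSL enzymes join free fatty acids to coenzyme A so that they can be used. Several of these genes are known targets of the sterol regulatory element-binding proteins and, in prostate cancer cells, of the androgen receptor.

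RNA sequencing gave 18 libraries from LNCaP, a human prostate cancer cell line that responds to androgen, grown in RPMI 1640 with 10% FBS. Of the 9 groups, each with 2 libraries that the submitters describe as biological duplicates, 4 belong to an experiment with inhibitors and 5 to an experiment with siRNAs. Inhibitor cells were exposed for 24 h to DMSO, the vehicle, or to UPF1069, olaparib or veliparib at 10 uM. Olaparib and veliparib inhibit PARP1 and PARP2, enzymes that attach ADP-ribose to proteins at damaged DNA, and UPF1069 is known as an inhibitor selective for PARP2. The siRNA groups were transfected for 72 h with siNC, a control siRNA, with siPARP1_A or siPARP1_B, directed at PARP1, or with siPARP2_A or siPARP2_B, directed at PARP2. All groups are the same line, so each result describes 1 cell line in culture.

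Depth was 26432687 to 35704264 reads per library in the inhibitor table and 15453270 to 18616980 in the siRNA table. In both tables levels are reads over a scaled library size, called CPM for the inhibitors, where the scaling lies between 0.991 and 1.01, and normalised CPM for the siRNAs, where it lies between 0.891 and 1.04. Every log2 fold change was computed after adding 1 to the value, so low levels give changes that are too small, and adjusted p values come from limma with Benjamini-Hochberg adjustment over all genes tested, with a threshold of 0.05. The p values measure the spread between these libraries only. This spread was pooled over the groups of a table, although replicates differed unequally. The chi-square per gene between replicates was 6.38 for veliparib and 1.31 to 2.15 in the other inhibitor groups. It was 8.04 for siNC and 2.63 to 6.30 in the other siRNA groups. Of 7 luminal prostate markers all 7 were expressed, while the adipocyte, immune and basal marker lists each had 1 of 3 genes with a row and none at a mean of 1. The luminal markers summed to 4649 to 4724 CPM in DMSO, 4634 to 4683 with UPF1069, 2928 to 2958 with olaparib and 4507 to 4597 with veliparib. Such sums weigh abundant markers most, and the 7 genes went both ways. Against DMSO, 3 rose and 4 fell with olaparib (log2 fold changes -2.99 to 0.67). With UPF1069 2 rose and 2 fell, and with veliparib 2 rose and 3 fell. In the siRNA table the luminal markers summed to 6043 to 6346 normalised CPM in siNC, 3726 to 3727 with siPARP1_A, 5369.8 to 5411 with siPARP1_B, 3354 to 3402 with siPARP2_A and 2391 to 2409.8 with siPARP2_B. With siPARP1_B 1 rose and 4 fell, and with each other siRNA all 7 fell. Stromal markers (3 of 3 with a row) summed to 3.38 to 3.56 in siNC, 8.16 to 8.35 with siPARP1_A, 1.80 to 3.13 with siPARP1_B, 2.69 to 3.119 with siPARP2_A and 9.75 to 10.5 with siPARP2_B. Endothelial markers (1 of 2 with a row) summed to 1.56 to 2.24 in siNC, 3.50 to 3.69 with siPARP1_A, 0.967 to 1.07 with siPARP1_B, 1.59 to 2.001 with siPARP2_A and 8.23 to 8.51 with siPARP2_B. Neuroendocrine markers (2 of 3 with a row) summed to 12.9 to 15.1 in siNC, 5.92 to 7.01 with siPARP1_A, 14.8 in both siPARP1_B libraries, 15.2 to 15.4 with siPARP2_A and 16.1 to 18.8 with siPARP2_B. Members of these lists did not always move together. Stromal markers gave 2 rises with siPARP1_A, 1 rise and 1 fall with siPARP1_B (-0.59 to 0.49), no call with siPARP2_A and 3 rises with siPARP2_B. Of the neuroendocrine markers, 1 fell with siPARP1_A, 1 rose with siPARP1_B and 1 rose with siPARP2_B. With siPARP2_A 1 fell and 1 was not called (-0.47 to 0.21). The part of these markers in the results below was not tested. In such bulk samples fewer cells of a kind and less RNA per cell cannot be told apart. All libraries are of the same line, so these sums are not counts of endothelial or stromal cells.

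Each siRNA lowered its target, and each also moved the other PARP gene to a smaller extent. PARP1 stood at 452 and 479 normalised CPM in siNC, at 4.78 and 5.67 with siPARP1_A and at 8.99 and 9.05 with siPARP1_B. PARP2 stood at 28.96 and 25.8 in siNC, at 3.06 and 2.56 with siPARP2_A and at 1.78 and 1.01 with siPARP2_B. With siPARP2_B, PARP1 also fell, to 160.5 and 145 (log2 fold change -1.60, SE 0.0731), whereas with siPARP2_A it was 409 and 395 (-0.21, adjusted p = 0.0194). PARP2 fell by 0.34 with siPARP1_A and by 0.51 with siPARP1_B on the log2 scale (adjusted p = 0.0417 and 0.00429).

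In DMSO, FASN and FADS2 were the most abundant of the genes per length, at 286 ± 9.89 and 282 ± 0.587 CPM per kb of transcript (SD, n = 2), and their libraries overlapped. ACLY followed at 170 ± 0.834, SCD at 165 ± 0.722 and ACSL1 at 149 ± 1.86, while FADS1 and ACSS2 stood at 37.0 ± 1.41 and 32.8 ± 0.211. ACSL4 and ACSL5 were near the bottom at 0.857 ± 0.0894 and 0.490 ± 0.0160. Apart from FASN and FADS2, no neighbours in this order had overlapping libraries.

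In siNC the order differed: FADS2 led at 148 ± 2.36 normalised CPM per kb, followed by ACLY at 113 ± 5.62 and ACSL1 at 113 ± 2.04, whose libraries overlapped. SCD stood at 58.5 ± 0.193, FADS1 at 29.1 ± 0.191 and ACSS2 at 26.7 ± 1.66. FASN was only seventh of the 9 at 12.6 ± 1.81, above ACSL4 at 0.514 ± 0.00388 and ACSL5 at 0.359 ± 0.0454.

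FASN thus had a mean of 2447.5 CPM in DMSO and of 108 normalised CPM in siNC, 22.7-fold apart. Only 7 of 12101 genes tested in both tables had a lower ratio of siNC to DMSO. The other fatty acid genes were 1.23-fold (ACSS2) to 2.82-fold (SCD) lower in siNC. The tables were normalised separately, so the values stand side by side and were not tested. The controls also differ in treatment (vehicle or transfected siRNA), in time (24 h or 72 h) and in depth, which cannot be told apart here. The log2 ratio of siNC to DMSO fell with the GC content of the transcript (Spearman rho -0.597 across these genes, which are not independent), with a median of -0.98 in the tenth of genes with the highest GC content against -0.12 for all. FASN has a GC content of 65.3%, at the percentile 96.6. The 337 other genes within 1 percentage point of it had a median of -1.03 and a lowest value of -4.21, against -4.49 for FASN.

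**Figure D1:**
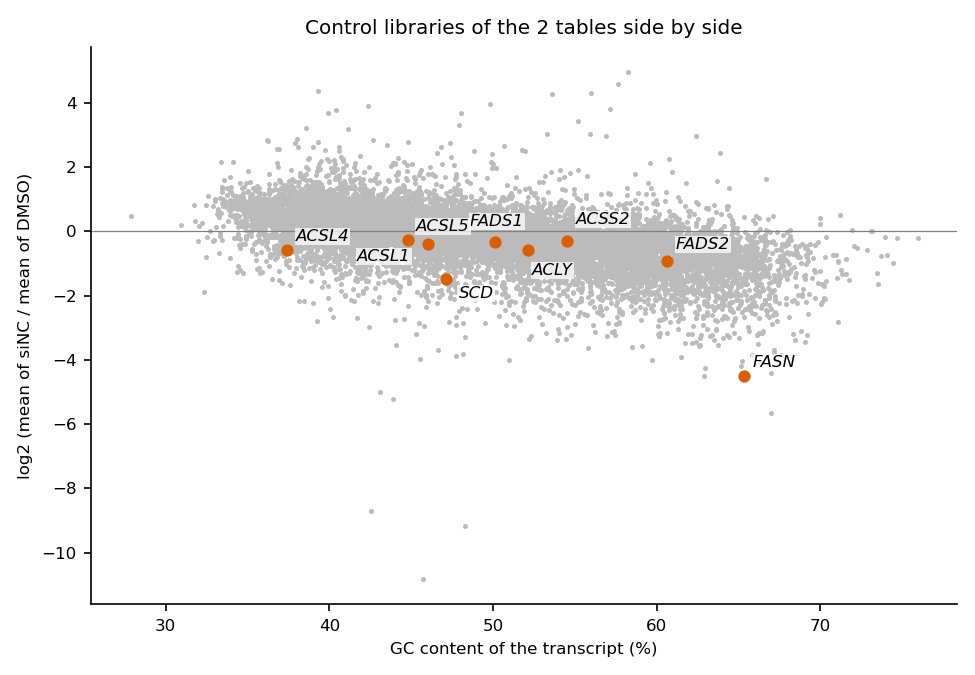
Log2 ratio of the mean of siNC (normalised CPM) to the mean of DMSO (CPM) against the GC content of the transcript for 12101 genes tested in both tables (grey) and for the 9 fatty acid genes (orange); the tables were normalised separately. FASN lies at 65.3% GC and -4.49, below the other 8 genes, which lie between -1.49 and -0.26.

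In the siRNA experiment FASN and ACSL1 rose with both PARP1 siRNAs and fell with both PARP2 siRNAs, and SCD rose with all 4. ACLY and FADS1 fell with both PARP2 siRNAs and with siPARP1_A, ACLY rose with siPARP1_B, and FADS2 fell with both PARP2 siRNAs and was not called with either PARP1 siRNA. For FADS2 with siPARP1_A and for FADS1 with siPARP1_B the call depended on the setting, as given below. With siPARP1_A, 5 of 9 rose, 2 fell and 2 were not called, against 54.4% of all genes called, 25.5% higher and 28.9% lower. With siPARP1_B, 5 rose and 4 were not called (40.4% of all genes called, 16.4% higher and 23.9% lower). With siPARP2_A, 2 rose, 6 fell and 1 was not called (49.4% of all genes called, 24.5% higher and 24.9% lower). With siPARP2_B, 3 rose and 6 fell (66.1% of all genes called, 30.9% higher and 35.2% lower). The shares of the 9 genes called were thus above those of all genes, with at most 9 genes behind each share, and all 4 comparisons share the 2 siNC libraries. The set of all genes was not matched to the 9 genes in level, and the part of level in these shares was not tested. The median log2 fold change of the 9 genes was 0.14 with siPARP1_A, 0.22 with siPARP1_B, -0.45 with siPARP2_A and -0.63 with siPARP2_B, where the median of all genes lay between -0.03 and 0.00. With plain CPM scaling in place of the deposited one, the counts of these genes were 6 risen and 2 fallen with siPARP1_A and the same as above with the others, while the share of rises among all calls went from 46.9% to 57.0% with siPARP1_A and from 46.8% to 61.3% with siPARP2_B, where the median of all genes was 0.12.

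**Figure D2:**
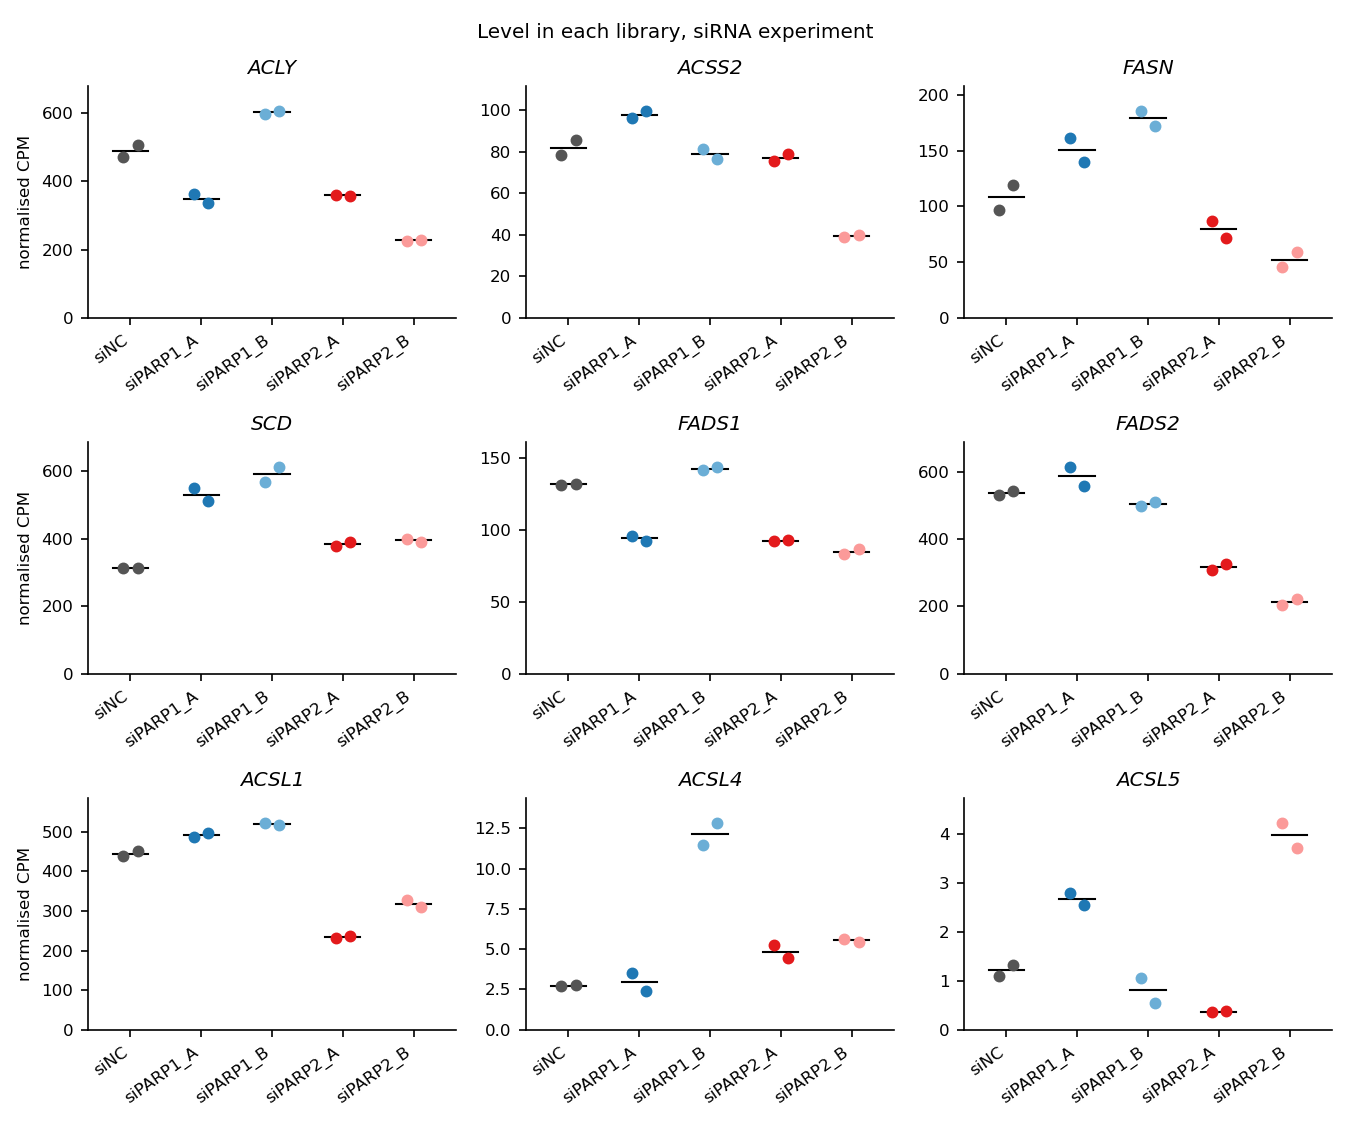
Level of each gene (normalised CPM, linear axis from 0) in the 10 libraries of the siRNA experiment; points are libraries, coloured by group, and black lines are group means of 2 libraries. All libraries of SCD with a PARP siRNA lie above the siNC libraries, and FASN lies above siNC with the PARP1 siRNAs and below it with the PARP2 siRNAs.

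ACLY supplies most of the acetyl-CoA drawn from citrate. Its level was 472 and 507 normalised CPM in siNC, 362 and 337 with siPARP1_A, 598 and 607 with siPARP1_B, 361 and 357 with siPARP2_A and 226 and 227 with siPARP2_B. No group overlapped siNC: siPARP1_B lay above it and the other 3 below it. The log2 fold changes were -0.49 (SE 0.0550, adjusted p = 5.46e-08), 0.30 (adjusted p = 0.000112), -0.45 (adjusted p = 3.17e-07) and -1.11 (adjusted p = 4.40e-15), by limma.

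ACSS2, the acetate-using synthetase, parted the sequences of each target. It stood at 78.2 and 85.4 in siNC, at 96.0 and 99.6 with siPARP1_A, at 81.2 and 76.6 with siPARP1_B, at 75.2 and 78.9 with siPARP2_A and at 39.0 and 39.7 with siPARP2_B. It rose with siPARP1_A (log2 fold change 0.25) and fell with siPARP2_B (-1.04), where the ratio of its mean to that in siNC was 0.481. With siPARP1_B and siPARP2_A the libraries overlapped those of siNC, at -0.05 (95% interval -0.19 to 0.08) and -0.08 (-0.22 to 0.05).

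FASN, the synthase, stood at 97.1 and 119 in siNC. It was 162 and 139.5 with siPARP1_A, 186 and 172.5 with siPARP1_B, 87.0 and 71.7 with siPARP2_A and 45.4 and 59.1 with siPARP2_B. Both PARP1 groups lay above siNC and both PARP2 groups below it, without overlap. The log2 fold changes were 0.48 (SE 0.103, adjusted p = 0.000374), 0.73 (adjusted p = 3.92e-06), -0.44 (adjusted p = 0.00104) and -1.04 (adjusted p = 2.88e-09). Without siNC replicate 2 the fall with siPARP2_A was -0.29 and no longer passed (adjusted p = 0.0583), while the other 3 calls held without any single library.

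SCD, the stearoyl-CoA desaturase, stood at 314 and 313 in siNC, at 551 and 509.8 with siPARP1_A, at 567 and 612 with siPARP1_B, at 377.5 and 391 with siPARP2_A and at 399 and 390.5 with siPARP2_B. Every library with a PARP siRNA lay above both siNC libraries. The rise was 0.76 (adjusted p = 3.05e-11) and 0.91 (adjusted p = 3.63e-12) with the PARP1 siRNAs, and 0.29 (adjusted p = 0.000127) and 0.33 (adjusted p = 1.35e-05) with the PARP2 siRNAs. SCD was the only 1 of the 9 genes called in the same direction in all 4 comparisons with siNC.

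FADS2, the delta-6 desaturase that starts the synthesis of polyunsaturated chains, fell with the PARP2 siRNAs. Its level was 532 and 544 in siNC, 615 and 559 with siPARP1_A, 499 and 512 with siPARP1_B, 307 and 325 with siPARP2_A and 205 and 223 with siPARP2_B. The falls of -0.77 and -1.33 (adjusted p = 1.09e-10 and 4.54e-16) gave ratios to the siNC mean of 0.588 and 0.398. With siPARP1_A both libraries lay above siNC, and the difference was 0.12 (adjusted p = 0.0777). It passed the threshold with edgeR (0.14, adjusted p = 0.0385) and DESeq2 (0.14, adjusted p = 0.0336) on the recovered reads. It also passed with plain CPM scaling (0.20, adjusted p = 0.00453) and with the GC and length correction (0.15, adjusted p = 0.0103). The call with siPARP1_A thus depended on the setting. With siPARP1_B the difference was -0.09 (95% interval -0.21 to 0.03).

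FADS1, the delta-5 desaturase, fell with 3 of the 4 siRNAs. It stood at 131 and 132 in siNC, at 96.0 and 92.3 with siPARP1_A, at 141 and 144 with siPARP1_B, at 92.4 and 92.8 with siPARP2_A and at 83.3 and 86.6 with siPARP2_B. It fell by 0.48, 0.50 and 0.63 on the log2 scale with siPARP1_A, siPARP2_A and siPARP2_B. With siPARP1_B both libraries lay above siNC, at 0.12 (adjusted p = 0.119). This reached the threshold with edgeR on recovered reads (0.15, adjusted p = 0.0395 with TMM and 0.0416 with RLE). It also did so when centred on the median of all genes (0.15, adjusted p = 0.0475) and with the GC and length correction (0.14, adjusted p = 0.0242). The call of FADS1 with siPARP1_B thus depended on the setting. FADS1 and FADS2 lie on opposite strands of chromosome 11, and 490 exon bases, 4.79% of those of FADS1, overlap in GENCODE v29. The library kit does not mark strand, so reads from these bases cannot be assigned to one gene.

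ACSL1, which activates long-chain fatty acids, separated the targets without overlap. It stood at 439 and 451 in siNC, at 487 and 497 with siPARP1_A, at 523 and 517 with siPARP1_B, at 232 and 237.5 with siPARP2_A and at 327 and 310.2 with siPARP2_B. The rises were small, 0.14 (adjusted p = 0.0237) and 0.22 (adjusted p = 0.00145), and the falls larger, -0.92 (adjusted p = 4.51e-13) and -0.48 (adjusted p = 1.64e-08). The call with siPARP1_A was lost without siNC replicate 1 (adjusted p = 0.0862) and without either siPARP1_A library (adjusted p = 0.0641 and 0.126).

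ACSL4, which prefers arachidonic acid, was weakly expressed, with 38 to 186 reads per library. It stood at 2.73 and 2.76 in siNC, at 3.51 and 2.42 with siPARP1_A, at 11.5 and 12.8 with siPARP1_B, at 5.26 and 4.44 with siPARP2_A and at 5.65 and 5.47 with siPARP2_B. The rise with siPARP1_B was 4.43-fold in the ratio of means (log2 fold change 1.81, SE 0.148, adjusted p = 5.53e-10), and with siPARP2_A and siPARP2_B 1.77-fold and 2.03-fold. With siPARP1_A the libraries lay on both sides of siNC.

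ACSL5, a mitochondrial and endoplasmic reticulum isoform, had only 6 to 71 reads per library. It stood at 1.10 and 1.32 in siNC, at 2.78 and 2.55 with siPARP1_A, at 1.07 and 0.553 with siPARP1_B, at 0.367 and 0.375 with siPARP2_A and at 4.22 and 3.72 with siPARP2_B. It rose with siPARP1_A (0.73, adjusted p = 0.00116) and siPARP2_B (1.17, adjusted p = 2.70e-06) and fell with siPARP2_A (-0.69, adjusted p = 0.00226). A value of 3 reads is 0.169 to 0.207 in these libraries, and the siPARP2_A libraries held 6 reads of ACSL5 each. In GENCODE v29, 5.29% of the exon bases of ACSL5 overlap an antisense gene and 3.40% overlap ZDHHC6 on the other strand.

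**Figure D3:**
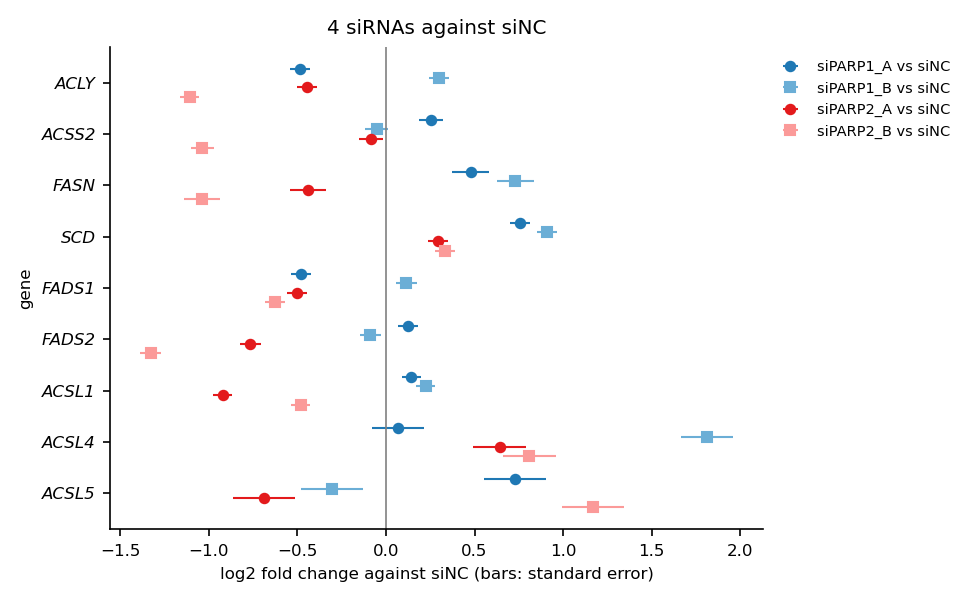
Log2 fold change against siNC of each gene with the 4 siRNAs; points are limma estimates on log2(value + 1), bars 1 standard error, blue for PARP1 and red for PARP2 siRNAs. For FASN, SCD, FADS2 and ACSL1 both PARP2 siRNAs lie left of both PARP1 siRNAs. The same holds for ACSS2 and FADS1, where the nearest points of the targets lie close together. For ACSL5 the sequences of each target lie apart.

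The difference between the PARP2 and the PARP1 siRNAs does not use siNC. Its standard errors and p values do, since all groups of the table were fitted together. In the mean of the 2 siPARP2 groups against the mean of the 2 siPARP1 groups, 7 of the 9 genes were lower, none was higher and 2 were not called, against 65.5% of all genes called, 33.3% higher and 32.2% lower. The median log2 difference of the 9 genes was -0.66, against 0.01 for all genes. FASN differed by -1.34 (SE 0.0731, adjusted p = 4.29e-14), FADS2 by -1.06, ACSL1 by -0.88 and SCD by -0.52, with all 4 siPARP2 libraries below all 4 siPARP1 libraries. ACLY (-0.68), ACSS2 (-0.66) and FADS1 (-0.38) were also called, but libraries of the groups overlapped. ACSL4 (-0.22, adjusted p = 0.0737) and ACSL5 (0.03, 95% interval -0.23 to 0.28) were not called.

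Since siPARP2_B also lowered PARP1 to a ratio of 0.328, each PARP2 sequence was set alone against the mean of the siPARP1 groups, an alternative chosen after seeing the data. With siPARP2_A alone, FASN differed by -1.04, ACSL1 by -1.10, FADS2 by -0.78, SCD by -0.54, ACLY by -0.35, FADS1 by -0.32 and ACSS2 by -0.19, all past the threshold. For ACLY and FADS1, however, the siPARP2_A libraries overlapped those of siPARP1_A, and for ACSS2 those of siPARP1_B. The differences of ACLY, FADS1 and ACSS2 thus rest on the other PARP1 sequence in each case. ACLY, FADS2 and ACSS2 were over 1.5 times farther from 0 with siPARP2_B alone, at -1.01, -1.35 and -1.14, as was FASN at -1.64, while ACSL1 was over 1.5 times nearer to 0, at -0.66. SCD was at -0.50 and FADS1 at -0.44 with siPARP2_B alone. ACSL5 was -0.90 with siPARP2_A alone and 0.95 with siPARP2_B alone, both past the threshold.

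The sequences of a target also differed from each other. Between siPARP1_A and siPARP1_B, 8 of the 9 genes were called, 3 higher and 5 lower with A (54.8% of all genes called, 28.4% higher and 26.5% lower). ACSL4 differed by -1.74, ACSL5 by 1.03, ACLY by -0.78 and FADS1 by -0.59. FASN (-0.25, adjusted p = 0.0424) and SCD (-0.15, adjusted p = 0.0245) were close to the threshold and lost the call with plain CPM scaling, where 3 genes were higher and 3 lower. Both also lost it without siPARP1_A replicate 2 (adjusted p = 0.365 and 0.273) and without siPARP1_B replicate 2 (adjusted p = 0.0639 and 0.260), and FASN without siPARP1_B replicate 1 (adjusted p = 0.226). FADS2 (0.21) lost it without siPARP1_A replicate 1 (adjusted p = 0.107). Between siPARP2_A and siPARP2_B, 6 of the 9 were called (64.8% of all genes called, 34.3% higher and 30.6% lower). This share is near that of all genes, so it is not a result about these genes as a list. ACSL5 was at -1.86, ACSS2 at 0.95, ACLY at 0.66, FASN at 0.60, FADS2 at 0.56 and ACSL1 at -0.44. SCD differed by -0.04 (95% interval -0.16 to 0.08) and by -0.23 (adjusted p = 0.000755) with plain CPM scaling, which set the median of all genes to -0.15 and the share of higher calls with A among all calls to 35.5% in place of 52.9%. FADS1 was at 0.12 (adjusted p = 0.0665) and at -0.07 with that scaling.

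In the inhibitor experiment all changes of the 9 genes against DMSO were small, at most 0.42 on the log2 scale. With UPF1069, 1 of 9 rose, 4 fell and 4 were not called (24.3% of all genes called, 10.3% higher and 14% lower). Without any 1 of its 4 libraries no gene rose, and 2 fell without DMSO replicate 1 or UPF1069 replicate 2 and 3 fell without DMSO replicate 2 or UPF1069 replicate 1. With olaparib, 4 rose, 4 fell and 1 was not called (52.5% of all genes called, 25.8% higher and 26.8% lower). With veliparib, 2 rose, 3 fell and 4 were not called (40.4% of all genes called, 17.2% higher and 23.2% lower). The 3 comparisons share the 2 DMSO libraries. With UPF1069 the share of rises among all calls was 42.3%, and 51.5% when centred on the median of all genes, where 1 of the 9 genes rose and 3 fell. FASN, ACLY and FADS2 fell and ACSL1 rose in each of the 3 comparisons, although FASN with veliparib was at 0.06 (adjusted p = 0.153) after the GC and length correction, and SCD fell with UPF1069 and rose with the other compounds.

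**Figure D4:**
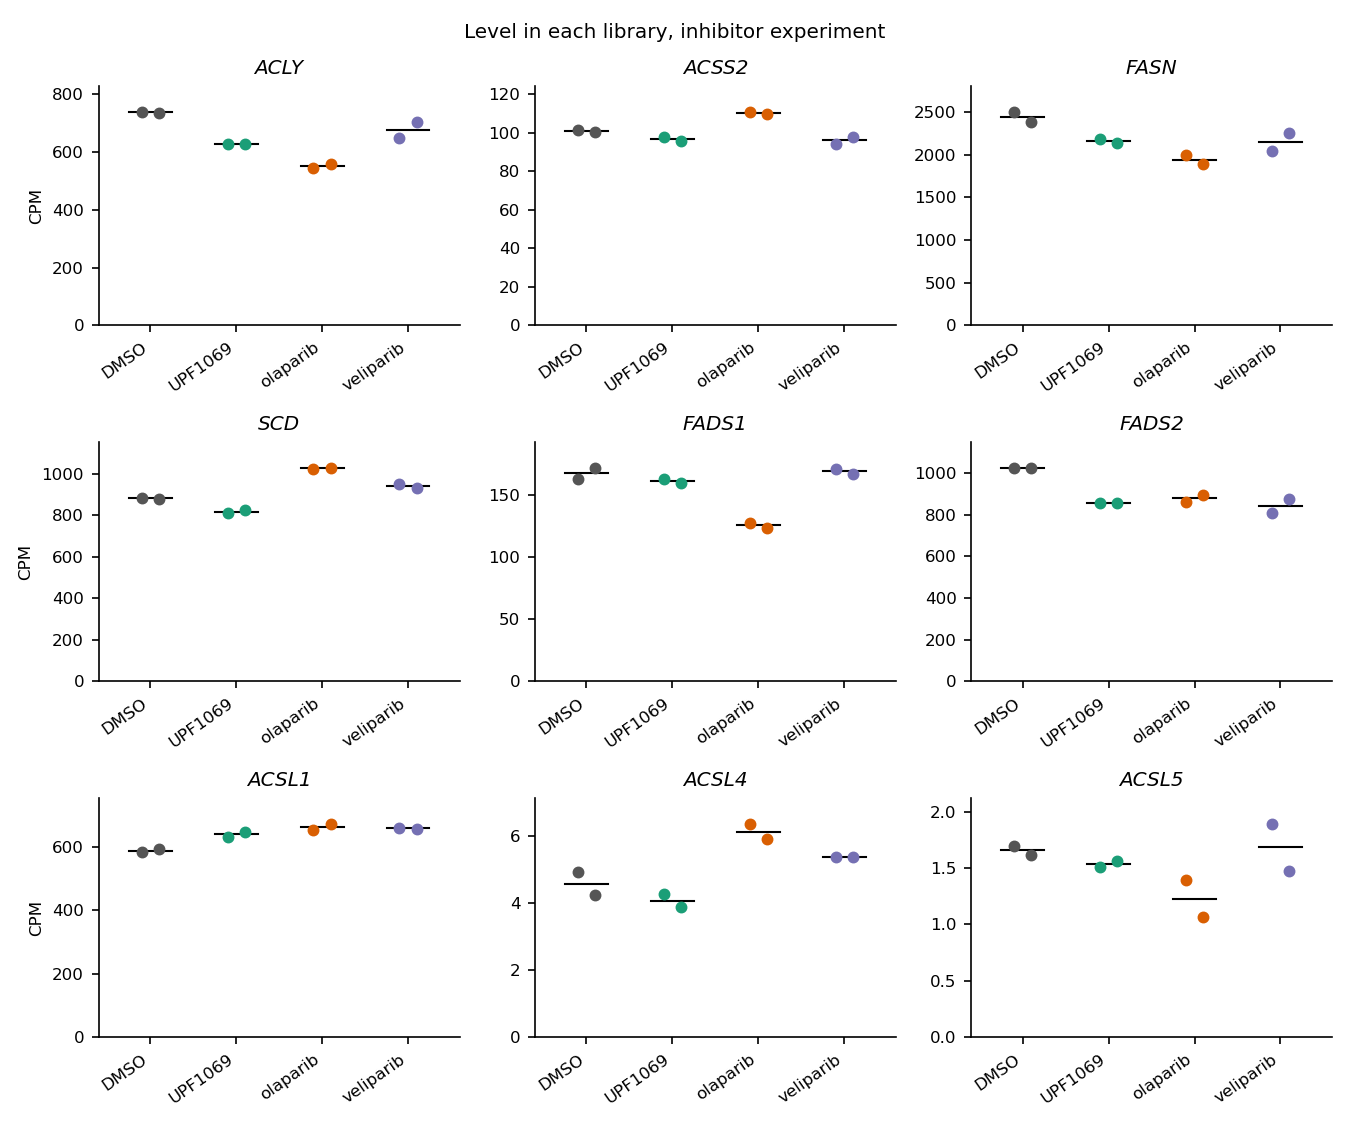
Level of each gene (CPM, linear axis from 0) in the 8 libraries of the inhibitor experiment; points are libraries, coloured by group, and black lines are group means of 2 libraries. ACLY falls from 734 and 739 CPM in DMSO to 546 and 558 CPM with olaparib, and the groups lie closer together than in the siRNA experiment.

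ACLY stood at 739 and 734 CPM in DMSO, at 627 and 626 with UPF1069, at 546 and 558 with olaparib and at 649 and 703 with veliparib. All treated libraries lay below both DMSO libraries. The log2 fold changes were -0.23 (adjusted p = 0.000120), -0.42 (SE 0.0387, adjusted p = 6.95e-09) and -0.12 (adjusted p = 0.0134). The veliparib call was lost without DMSO replicate 1 (adjusted p = 0.0956), DMSO replicate 2 (adjusted p = 0.0650) or veliparib replicate 1 (adjusted p = 0.0578). ACSS2 stood at 101 and 100.2 CPM in DMSO and rose with olaparib to 111 and 109.6 (0.13, adjusted p = 0.0104), a call that was lost without either DMSO library (adjusted p = 0.0530 and 0.0767) or without olaparib replicate 1 (adjusted p = 0.0728).

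FASN stood at 2507 and 2388 CPM in DMSO, at 2186 and 2136 with UPF1069, at 1994 and 1892 with olaparib and at 2050.0 and 2258 with veliparib. All treated libraries lay below DMSO. The log2 fold changes were -0.18 (adjusted p = 0.00562), -0.33 (adjusted p = 1.97e-06) and -0.19 (adjusted p = 0.00231). The call with UPF1069 was lost without DMSO replicate 1 (-0.14, adjusted p = 0.110) and without UPF1069 replicate 2 (-0.16, adjusted p = 0.103), and that with veliparib without DMSO replicate 1 (-0.15, adjusted p = 0.0589) and after the GC and length correction, where the sign turned (0.06, adjusted p = 0.153).

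SCD stood at 885 and 879.8 CPM in DMSO, at 810.5 and 823 with UPF1069, at 1024 and 1029.6 with olaparib and at 953 and 932 with veliparib. The olaparib and veliparib libraries lay above DMSO and the UPF1069 libraries below it. The rise with olaparib was 0.22 (adjusted p = 1.77e-05). The fall with UPF1069 (-0.11, adjusted p = 0.0234) and the rise with veliparib (0.09, adjusted p = 0.0347) were near the threshold. The fall missed it with edgeR on the recovered reads (adjusted p = 0.0561 with TMM and 0.0519 with RLE). It also missed it when centred on the median of all genes (adjusted p = 0.0567) and with no filter (adjusted p = 0.0606). The rise missed it with no filter (adjusted p = 0.0840) and with only the groups compared (adjusted p = 0.146). The call with UPF1069 was lost without any 1 of its 4 libraries (adjusted p = 0.116 to 0.214), and that with veliparib without either DMSO library (adjusted p = 0.132 and 0.162).

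FADS2 stood at 1023 and 1026 CPM in DMSO, at 858 and 857 with UPF1069, at 861 and 896 with olaparib and at 810.1 and 874.5 with veliparib. The falls were -0.26, -0.22 and -0.28 (adjusted p = 4.98e-05, 6.01e-05 and 5.95e-06), and no treated library overlapped DMSO. FADS1 stood at 163 and 172 CPM in DMSO and fell to 128 and 124 with olaparib (-0.41, adjusted p = 1.45e-08). It was 162 and 159.7 with UPF1069 and 171 and 167 with veliparib, at -0.06 (95% interval -0.14 to 0.03) and 0.01 (-0.07 to 0.10).

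ACSL1 stood at 582 and 593 CPM in DMSO, at 631 and 646 with UPF1069, at 652 and 672 with olaparib and at 658 and 656 with veliparib. All treated libraries lay above DMSO, with log2 fold changes of 0.12 (adjusted p = 0.0164), 0.17 (adjusted p = 0.000309) and 0.16 (adjusted p = 0.000929). With UPF1069 the call was lost without any 1 of the 4 libraries (adjusted p = 0.0735 to 0.203). ACSL4 stood at 4.91 and 4.24 CPM in DMSO and at 6.36 and 5.88 with olaparib (0.36, adjusted p = 0.00462), from 124 to 210 reads per library. That call was lost without DMSO replicate 2 (0.27, adjusted p = 0.0804) and without olaparib replicate 1 (adjusted p = 0.0562). ACSL5, at 1.06 to 1.89 CPM and 38 to 55 reads, was not called with any inhibitor, the lowest value being -0.26 with olaparib (95% interval -0.53 to 0.01).

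The veliparib libraries stood apart in other measures. The log2 fold changes of all genes with veliparib fell with GC content (Spearman rho -0.698 across genes, against 0.113 with UPF1069 and -0.112 with olaparib), and the ribosomal and other structural RNAs with a row summed to 778 to 846 CPM, against 122 to 125 in DMSO, 182 to 236 with UPF1069 and 132 to 257 with olaparib. After a correction for GC content and transcript length, FASN was at 0.06 with veliparib (adjusted p = 0.153) and SCD at 0.01 (adjusted p = 0.847). ACLY, FADS2 and ACSL1 kept their calls, which makes 3 called genes in place of 5, 1 risen and 2 fallen. The share of rises among all calls was 30.0% with the correction and 42.5% without it.

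At the matched dose and time, the 3 pairs of inhibitors were compared over the 9 genes, with p values adjusted over all genes of a pair. UPF1069 and olaparib differed in 6 of 9 (51.2% of all genes called, 24.2% higher and 27% lower): SCD (-0.33), ACSS2 (-0.19) and ACSL4 (-0.49) were lower with UPF1069, and FADS1 (0.35), ACLY (0.18) and FASN (0.15) higher. FADS2 (-0.03, 95% interval -0.12 to 0.05), ACSL1 (-0.05, -0.13 to 0.02) and ACSL5 (0.19, -0.08 to 0.46) were not called. After the GC correction, FASN was at 0.05 (adjusted p = 0.179) and FADS2 at -0.10 (adjusted p = 0.00222). Without UPF1069 replicate 1 or olaparib replicate 2, FASN also missed the threshold (adjusted p = 0.0932 and 0.129).

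Olaparib and veliparib differed in 5 of 9 (59.5% of all genes called, 31.7% higher and 27.7% lower): FADS1 by -0.42, ACLY by -0.29, FASN by -0.15, ACSS2 by 0.20 and SCD by 0.12. The share called was near that of all genes and is not a result about these genes as a list. FADS2 (0.06, 95% interval -0.02 to 0.14), ACSL1 (0.01, -0.06 to 0.08), ACSL4 (0.16, -0.04 to 0.37) and ACSL5 (-0.27, -0.54 to 0.0021) were not called. The GC correction raised the count to 8. The FASN difference was lost without olaparib replicate 2 (-0.11, adjusted p = 0.131).

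UPF1069 and veliparib differed in 3 of 9 (50.8% of all genes called, 25.9% higher and 24.9% lower): ACSL4 by -0.33, SCD by -0.21 and ACLY by -0.11. FASN (0.01, 95% interval -0.09 to 0.10) and FADS2 (0.03, -0.05 to 0.11) were not called. After the GC correction they were at -0.29 and -0.19, both past the threshold, so the sign of these differences rests on the correction. The count was 1 without UPF1069 replicate 2 and 5 without veliparib replicate 2. ACLY lost its call without either UPF1069 library (adjusted p = 0.118 and 0.122) or without veliparib replicate 2 (adjusted p = 0.122), and ACSL4 without UPF1069 replicate 2 (adjusted p = 0.0847), after the GC correction (-0.12, adjusted p = 0.354) and in DESeq2 on the recovered reads (adjusted p = 0.0742).

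**Figure D5:**
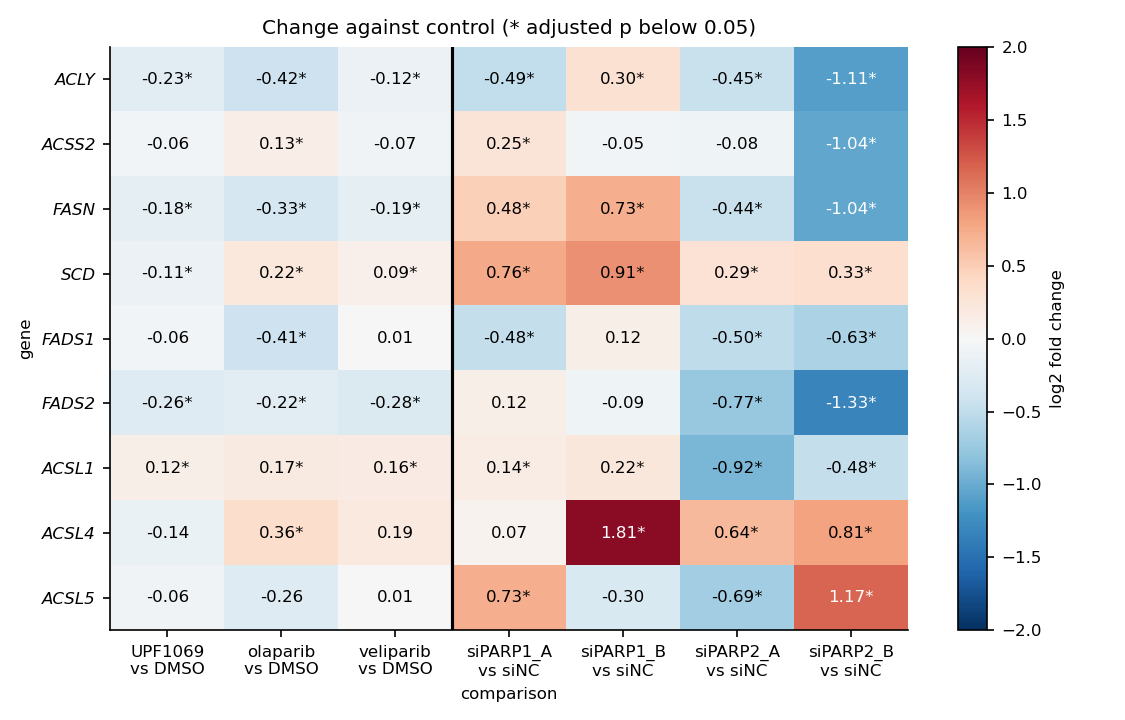
Log2 fold change against the control of the same table for 9 genes in 7 comparisons, with the value in each cell and an asterisk where the limma adjusted p is below 0.05; the vertical line parts inhibitors (DMSO as control) from siRNAs (siNC as control). The inhibitor values lie between -0.42 and 0.36 and the siRNA values between -1.33 and 1.81.

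Regulators of these genes were followed as a list of 15. SREBF1 and SREBF2 encode the transcription factors, SCAP escorts them, INSIG1 and INSIG2 hold them in the endoplasmic reticulum, MBTPS2 cuts them free, and THRSP and MID1IP1 act on acetyl-CoA carboxylase or lipogenesis. With siPARP2_B, 3 of 14 tested rose and 10 fell (66.1% of all genes called), with siPARP2_A 3 rose and 6 fell (49.4%), with siPARP1_A 3 rose and 4 fell (54.4%), and with siPARP1_B 2 rose and 2 fell (40.4%). For this list and those that follow, a share near that of all genes is not a result about the list. SCAP stood at 83.0 and 84.1 normalised CPM in siNC, at 46.2 and 49.1 with siPARP2_A and at 39.1 and 47.4 with siPARP2_B, changes of -0.80 and -0.94. With siPARP1_A SCAP was at -0.19 (adjusted p = 0.0469) and with siPARP1_B at 0.20 (adjusted p = 0.0482).

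SREBF1 fell with siPARP2_B (-0.60), from 48.8 and 57.4 to 33.4 and 35.6, and was not called with the other siRNAs. SREBF2 fell with siPARP1_A (-0.41), siPARP2_A (-0.27) and siPARP2_B (-0.45) and rose with siPARP1_B (0.35). INSIG1, itself a target of the sterol regulatory factors, fell with siPARP1_A (-0.83) and siPARP2_A (-0.69), rose with siPARP2_B (0.20) and stood at 182 and 186 with siPARP1_B against 184 and 181 in siNC. MBTPS2 fell with siPARP2_B from 161 and 143 to 47.0 and 51.1 (-1.61, adjusted p = 1.68e-16). THRSP stood at 4.35 and 3.96 in siNC, at 8.83 and 8.41 with siPARP1_A and at 1.65 and 1.56 with siPARP2_A. With siPARP2_B it was at 0.178 and 0.225, within 1 read of the floor of 3 reads. USF1, an E-box factor, fell with siPARP1_B (-0.51).

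With the inhibitors, 3 of 15 regulators fell with UPF1069 (24.3% of all genes called), 4 rose and 4 fell with olaparib (52.5%), and 1 rose and 8 fell with veliparib (40.4%). INSIG2 rose with olaparib from 32.5 and 36.5 to 63.1 and 61.4 CPM (0.84, adjusted p = 9.39e-10), and THRSP rose by 0.49. SREBF1 fell with UPF1069 (-0.11) and veliparib (-0.41), SREBF2 with olaparib (-0.17) and veliparib (-0.12), and SCAP with olaparib (-0.23) and veliparib (-0.31). INSIG1 fell with UPF1069 (-0.26) and was not called with olaparib (0.07) or veliparib. NR1H3, a liver X receptor, fell with UPF1069 too (-0.22). MID1IP1 fell with veliparib (-0.36) and rose with olaparib (0.40, adjusted p = 6.43e-09), the latter named after its value was seen. The veliparib values stand beside the GC trend given above.

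Close relatives of the 9 genes, such as other acyl-CoA synthetases and fatty acid transport proteins, formed a list of 21, of which 15 were tested with the inhibitors and 14 with the siRNAs. With olaparib 3 rose and 8 fell (52.5% of all genes called), and with UPF1069 2 rose and 1 fell (24.3%). ACSL3, another long-chain synthetase, fell from 390 to 195 CPM with olaparib (-0.996, adjusted p = 3.33e-14) and to 305 CPM with UPF1069 (-0.36). In siNC it stood at 1121 normalised CPM, and it fell to 408 with siPARP2_A (-1.46) and to 503 with siPARP2_B (-1.16). It also fell with siPARP1_A (-0.72) and siPARP1_B (-0.25), values named after they were seen. SCD5, a second stearoyl-CoA desaturase, fell from 6.82 to 2.56 with siPARP1_A (-1.14), where SCD rose, and rose with siPARP1_B (0.53) and UPF1069 (0.47). ACSM1 fell with siPARP1_A (-1.59) and siPARP2_A (-1.90), and ACSL6 rose with siPARP1_B (0.60) and siPARP2_B (1.06). With siPARP1_A 6 of 14 rose and 4 fell (54.4% of all genes called), with siPARP1_B 5 rose and 3 fell (40.4%), with siPARP2_A 4 rose and 5 fell (49.4%), and with siPARP2_B 4 rose and 3 fell (66.1%). With veliparib 7 of 15 fell (40.4% of all genes called), among them the transport protein genes SLC27A1 (-0.34) and SLC27A4 (-0.33). Like those of the lists that follow, these veliparib values stand beside the GC trend given above and are not corrected for it.

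Genes that supply citrate and NADPH formed a list of 9, all tested. ME1, the malic enzyme that makes NADPH, rose with siPARP1_A from 97.4 to 221 normalised CPM (1.18, adjusted p = 4.45e-13), with siPARP1_B (0.64) and with siPARP2_A (0.76). IDH1, the cytosolic isocitrate dehydrogenase, fell with siPARP2_A (-0.86) and siPARP2_B (-1.41), as did citrate synthase CS with siPARP2_B (-1.02). SLC25A1, the citrate carrier, fell with siPARP1_A (-0.41) and siPARP1_B (-0.51). The counts were 1 risen and 5 fallen with siPARP1_A (54.4% of all genes called), 3 and 2 with siPARP1_B (40.4%), 1 and 5 with siPARP2_A (49.4%) and 3 and 5 with siPARP2_B (66.1%). With the inhibitors they were 1 and 2 with UPF1069 (24.3%), 4 and 3 with olaparib (52.5%) and 0 and 4 with veliparib (40.4%).

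Of 13 chain elongation genes, 11 were tested in the siRNA table. With siPARP2_B 3 rose and 7 fell (66.1% of all genes called), led by ELOVL7 (-2.37) and ELOVL5 (-2.14). With siPARP2_A 2 rose and 3 fell (49.4%), with siPARP1_A 2 and 5 (54.4%), and with siPARP1_B 3 and 2 (40.4%). Of 8 tested in the inhibitor table, 1 rose and 5 fell with olaparib (52.5% of all genes called), led again by ELOVL7 (-1.94) and ELOVL5 (-1.30). Of the same 8, 3 fell with UPF1069 (24.3%), and 2 rose and 2 fell with veliparib (40.4%). Genes of triglyceride synthesis, storage and oxidation numbered 14 tested of 18 in each table. With siPARP2_B 3 rose and 6 fell (66.1% of all genes called), among them CPT1A, the carnitine palmitoyltransferase of mitochondrial import (-0.74), and the phosphatidate phosphatase LPIN2 (-0.66). With siPARP2_A 1 rose and 5 fell (49.4%), with siPARP1_A 5 and 3 (54.4%), and with siPARP1_B 2 and 3 (40.4%). With UPF1069 5 rose and 2 fell (24.3%), with olaparib 6 and 2 (52.5%), and DGAT2, a diacylglycerol acyltransferase, rose with both (0.36 and 0.38). With veliparib 3 rose and 7 fell (40.4%).

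Across the 18 libraries, each centred on the control of its table, the levels of some of these genes ran together. The Pearson r of log2(value + 1) was 0.901 between ACLY and FADS1, 0.881 between FADS2 and ACSS2 and 0.825 between FASN and FADS2, but 0.0251 between SCD and ACLY and -0.195 between SCD and FADS1. The 18 points are replicate libraries of 9 groups, which share controls and depth, so these are descriptions. Among 12120 genes, the gene outside the list most like ACLY was ARSG (r 0.975), that most like FADS1 was HN1L (0.987), most like FADS2 was POR (0.966) and most like ACSS2 was PXK (0.977). SKI was most like FASN (0.958), CD302 most like SCD (0.936), SETD7 most like ACSL1 (0.953), LRRC8D most like ACSL4 (0.921) and DDX60L most like ACSL5 (0.971).

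Of the 10 listed genes, all but FASN, ACACA included, matched a promoter window in the RefSeq table for GRCh38.p14. The 250 bases before the start are shown for ACLY and FADS1, whose levels ran together, for FADS2, which starts beside FADS1, and for SCD, whose levels did not follow them. They are given 5′ to 3′ on the gene's strand, from chr17:41919023-41919272 (minus strand, the first of 2 windows) for ACLY, chr10:100346983-100347232 (plus) for SCD, chr11:61817004-61817253 (minus) for FADS1 and chr11:61816154-61816403 (plus, the second of 2 windows) for FADS2. Capitals mark CCAAT boxes and GC boxes on either strand.
ACLY: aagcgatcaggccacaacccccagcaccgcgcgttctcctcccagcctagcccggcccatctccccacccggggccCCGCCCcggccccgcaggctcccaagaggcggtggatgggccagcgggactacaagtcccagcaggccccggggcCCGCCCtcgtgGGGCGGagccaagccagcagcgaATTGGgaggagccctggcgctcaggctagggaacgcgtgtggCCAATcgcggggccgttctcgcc
SCD: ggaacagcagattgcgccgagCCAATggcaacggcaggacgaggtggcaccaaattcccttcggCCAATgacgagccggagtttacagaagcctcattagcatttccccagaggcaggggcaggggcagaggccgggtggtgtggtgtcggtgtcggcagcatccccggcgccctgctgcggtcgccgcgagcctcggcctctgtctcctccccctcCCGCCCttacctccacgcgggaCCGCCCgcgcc
FADS1: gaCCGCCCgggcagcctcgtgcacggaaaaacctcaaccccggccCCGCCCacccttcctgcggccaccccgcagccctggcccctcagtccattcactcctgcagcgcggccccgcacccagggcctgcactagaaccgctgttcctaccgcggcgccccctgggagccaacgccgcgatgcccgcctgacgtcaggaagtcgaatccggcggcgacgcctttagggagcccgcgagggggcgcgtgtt
FADS2: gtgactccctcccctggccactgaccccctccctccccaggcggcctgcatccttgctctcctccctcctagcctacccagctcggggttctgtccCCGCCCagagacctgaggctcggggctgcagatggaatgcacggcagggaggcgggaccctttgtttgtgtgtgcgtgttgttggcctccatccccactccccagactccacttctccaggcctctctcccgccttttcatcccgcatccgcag

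The motifs were searched by their letters on both strands: CCAAT for the CCAAT box, which 32.0% of 35116 windows of this length hold, and GGGCGG for the GC box, which 42.6% hold. SCD and ACLY each hold 2 CCAAT boxes, and FADS1 and both FADS2 windows hold none. A GC box lies in the ACLY, SCD and FADS1 windows and in the FADS2 window shown, whose FADS2 start lies 599 bases from the FADS1 start. The sterol regulatory element TCACNCCAC, in 0.883% of windows, lies in none of the 4 windows shown, and among all windows of the matched genes only in 1 of 5 windows of ACSL1. The E-box CACGTG, in 6.34% of windows, lies in none of theirs. No match says only that these letters are not in this window.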

How the data were processed

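RNA was extracted with RNeasy and made into libraries with NEBNext Ultra, a kit that does not mark strand, per the labels' protocols. As the authors deposited them, both tables hold reads over a scaled library size. The deposited inhibitor values are called CPM here (scaling 0.991 to 1.01), and the deposited siRNA values, a signal, are called normalised CPM (scaling 0.891 to 1.04). Tools listed in the submitters' processing notes, with no role given, are edgeR 3.12.0, HTSeq 0.6.1, TopHat2 2.1.0 and bcl2fastq 2.18, with the build hg19. Steps of both tables gave whole reads for 100% of values (within 0.01 of a read). Depth was 26432687 to 35704264 reads with inhibitors and 15453270 to 18616980 with siRNAs, so that a floor of 3 reads is 0.0841 to 0.113 in CPM and 0.169 to 0.207 in normalised CPM.

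Each table was fitted with all its groups by limma 3.58.1 (R 4.3.3, trend) on log2(value + 1), on the 13337 and 12701 genes whose mean was 1 or more, with Benjamini-Hochberg adjustment over all of them and a threshold of 0.05. The median standard error was 0.0617 and 0.0939. The scripts were tested on simulated data. Groups came from the sample labels. Alternatives were a pseudocount of 0.5, no filter, plain CPM scaling, median centring, only the groups compared, a correction for GC content and length (GENCODE v29, known for 98.0% and 98.2% of tested genes), a replicate block, each library left out, edgeR 4.0.16 and DESeq2 1.42.0 on the recovered reads and, added after seeing the data, each PARP2 siRNA alone.

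All listed genes are named. Of the other lists, SREBF1, SREBF2, SCAP and INSIG1 are named throughout, with up to 2 called genes per list and comparison by size of change, and 1 most alike gene per listed gene. The genes and lists were chosen with earlier results of these data known.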

Additional observations from a re-analysis of the deposited data

Results flagged for a closer look

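ACLY moved in opposite directions with the siRNAs against PARP1. It fell with siPARP1_A and rose with siPARP1_B, and the difference between them was -0.7841 on the log2 scale (limma, adjusted p = 1.06e-11), lower in both siPARP1_A libraries. ACSL5 moved in opposite directions with the siRNAs against PARP2: it fell with siPARP2_A and rose with siPARP2_B, a difference of -1.856 (limma, adjusted p = 1.32e-09). It rests on 6 and 6 reads with siPARP2_A against 71 and 66 with siPARP2_B. The PARP2 siRNAs also differ in PARP1, which was at 160.5 and 145 normalised CPM with siPARP2_B and at 409 and 395 with siPARP2_A, and its part in the difference was not tested.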

How the results depend on the processing

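Across the alternatives that left out no library, 1229 of the recomputed values kept direction and side of the threshold, 22 gained a call, 19 lost one and 34 changed sign. Among those without 1 library the numbers were 443, 8, 38 and 15. The count of called genes with veliparib was 3 with only the groups compared and 3 with the GC and length correction, with or without the replicate block, in place of 5. Olaparib against veliparib gave 8 in place of 5 with that correction, with or without the block. Leaving out 1 library gave 2 to 3 called genes for UPF1069 (5 with all), 6 to 8 for olaparib, 2 to 6 for veliparib, 5 to 6 for UPF1069 against olaparib, 1 to 5 for UPF1069 against veliparib and 4 to 7 for olaparib against veliparib. It gave 6 to 7 for siPARP1_A, 5 for siPARP1_B, 7 to 8 for siPARP2_A, 9 for siPARP2_B, 6 to 7 between the PARP1 siRNAs, 6 between the PARP2 siRNAs and 7 to 8 for siPARP2 against siPARP1. Where no construction shows it, the cause of a change was not tested.

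Signs changed as follows, mostly in values near 0. With the GC and length correction, with or without the block, veliparib gave ACSS2 0.00401, FADS1 -0.0148, FASN 0.0604 and ACSL5 -0.0708. UPF1069 against veliparib gave ACSS2 -0.0669, FADS2 -0.194, ACSL1 0.0310, FASN -0.292 and ACSL5 0.0126, olaparib against veliparib FADS2 -0.0902, and siPARP2_A against siPARP2_B SCD 0.0781. Plain CPM scaling gave ACSS2 -0.00177 and FASN -0.00622 for UPF1069 against veliparib and FADS1 -0.0661 for siPARP2_A against siPARP2_B. ACSL1 for olaparib against veliparib was -0.00716 when centred, -0.0108 with edgeR and TMM, -0.00608 with edgeR and RLE and -0.00606 with DESeq2. ACSL5 for siPARP2 against siPARP1 was -0.0311 with a pseudocount of 0.5, -0.290 with edgeR and TMM, -0.279 with RLE, -0.284 with DESeq2 and -0.90 with siPARP2_A alone.

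With 1 library left out, values ranged from -0.0259 to 0.0515 for FADS1 and -0.10 to 0.12 for ACSL5 with veliparib. For UPF1069 against veliparib they ranged from -0.0175 to 0.0389 for ACSS2, -0.0632 to 0.0759 for FASN, -0.0281 to 0.0821 for FADS2 and -0.19 to 0.0386 for ACSL5. They ranged from -0.0114 to 0.0321 for ACSL1 in olaparib against veliparib, -0.13 to 0.27 for ACSL4 with siPARP1_A, -0.11 to 0.0113 for ACSS2 with siPARP1_B and -0.0762 to 0.13 for ACSL5 in siPARP2 against siPARP1. Same-numbered replicates did not deviate together (correlations -0.141 to 0.115), and the replicate block alone left each count of called genes as it was, for example 5 with veliparib and 9 with siPARP2_B. ACSL4 and ACSL5 are limited by depth, with as few as 6 reads in a library.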
